A study of Nothobranchius furzeri with 15 samples.

Results

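By group median, the genes described here shifted in the same direction, and by a similar amount, at both doses of rotenone. The tissue was the brain of the turquoise killifish (Nothobranchius furzeri). Of 26739 gene identifiers, 407 were chosen: 341 that were lower at both doses, called the lower set, and 66 that were higher at both, called the higher set. They were selected on measured values. Each count was scaled to a common library total (CPM) and expressed as log2(CPM+1), and the median of each dose group was set against the DMSO median. A gene was a member if both differences had the same sign and a size of at least 0.4, if the doses differed by less than 1.5-fold on that scale, and if its mean count was at least 20, which 17956 genes reached. The size and direction of these differences therefore follow from the choice and are given as a description.

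Every fish was a male of the inbred GRZ strain aged 9 weeks, and brain was the labelled tissue. The solvent group received DMSO alone and had 5 libraries, the low dose was rotenone at 15 pM with 4 libraries, and the high dose was rotenone at 150 pM. Of the 6 libraries labelled 150 pM, replicate 1 was left out of the choice because its title number, 1, lies outside the range of 8 to 12 of the other 5 and the series description gives 5 libraries per group. That left 14 libraries, 9 of them from rotenone, with total counts over all 15 libraries from 19401441 to 23210889. The labels do not state that libraries stand for separate fish, and the spread between libraries may be technical in part.

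Rotenone is a plant-derived compound that blocks complex I of the mitochondrial respiratory chain, the enzyme that passes electrons from NADH to ubiquinone and pumps protons across the inner membrane. Dopamine neurons are known for their sensitivity to it, and at high exposure it is used to model Parkinson's disease in rodents and fish. GRZ is a laboratory strain of an annual fish known for its very short life. The gene identifiers matched 0 entries of the RefSeq gene table, which left them without names. The members are described by their values, lengths and joint behaviour, and brain cell markers could not be checked.

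By group median, members of the lower set were about equally low at both doses, as the choice required. Their median difference from DMSO on the log2(CPM+1) scale was -0.80 at 15 pM, with quartiles of -1.17 and -0.59, and -0.88 at 150 pM, with quartiles of -1.23 and -0.64. The member nearest to DMSO lay at -0.40 at both doses, and the farthest at -3.13 at 15 pM and -3.61 at 150 pM. The high dose lay farther from DMSO than the low dose in 211 members and the low dose farther in 129. A difference of at least 1 at both doses, on the same scale, was found in 97 members and one of at least 2 in 15. Fold changes fitted by edgeR were less alike, with a median log2 value of -0.32 at 15 pM and -1.11 at 150 pM. Membership depended on the use of medians: with group means in their place the same limits gave 153 lower genes, 114 of them among the 341, and 27 higher genes, 16 of them among the 66.

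Single libraries did not all follow these medians. Taken over the 341 genes of the lower set, the median difference from the DMSO median was -0.74 in DMSO replicate 1, 0.06 in replicate 2, 0.00 in replicate 3, -0.07 in replicate 4 and 0.25 in replicate 5. The 15 pM libraries had medians of -0.92 in replicate 1, -0.83 in replicate 2, 0.76 in replicate 3 and -0.92 in replicate 4. At 150 pM replicates 2 to 6 lay between -1.01 and -0.72. Thus DMSO replicate 1 lay with the rotenone libraries, and 15 pM replicate 3 lay above every DMSO library. Over all 17956 genes, 13.7% lay at least 0.4 above the DMSO median in 15 pM replicate 3. That share was 3.69% to 6.84% in the other rotenone libraries used and 5.43% in DMSO replicate 1. The share at least 0.4 below was 11.3% in 15 pM replicate 3, 10.4% to 16.1% in the other 15 pM libraries and 3.67% in DMSO replicate 1.

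**Figure D1:**
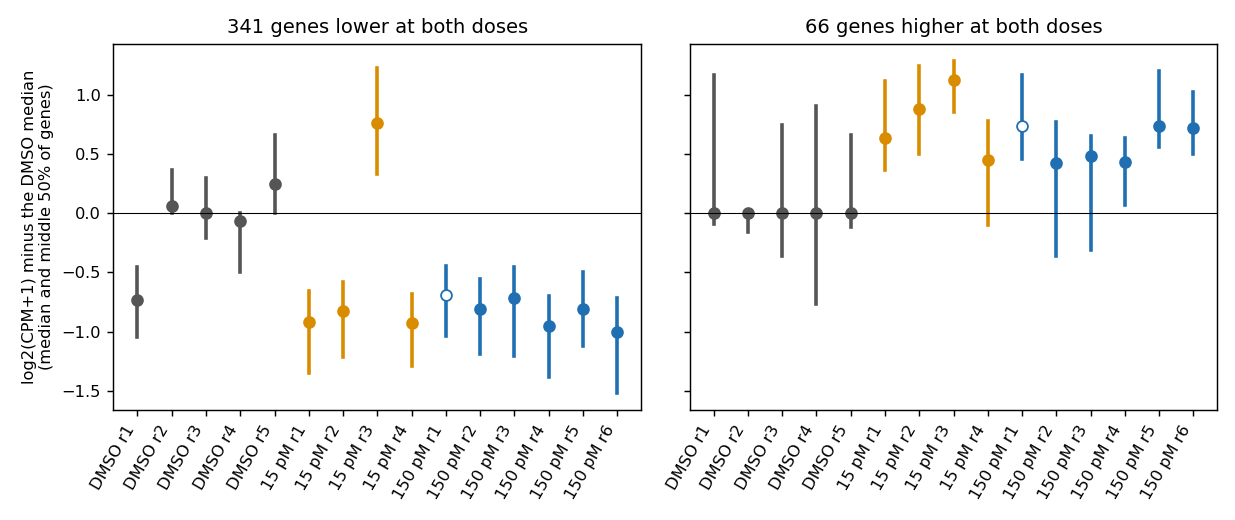
Difference of each library from the DMSO median in log2(CPM+1) for the lower set (left) and the higher set (right); points are medians over genes, bars span the quartiles, the open circle is 150 pM replicate 1, and r stands for replicate. In the left panel DMSO replicate 1 sits at -0.74 among the rotenone libraries and 15 pM replicate 3 at 0.76 above all others.

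The same values were also counted gene by gene. All these libraries took part in the choice, so the counts and shares follow in part from it and are given as a description. With the midpoint between the DMSO median and the rotenone median as a boundary, DMSO replicate 1 lay on the rotenone side in 278 of the 341 genes, while DMSO replicates 2, 3, 4 and 5 did so in 2, 48, 116 and 30. Among the 9 rotenone libraries used in the choice the number was 285 or more, except in 15 pM replicate 3, where it was 31. In 219 of the 341 genes (64.2%) 15 pM replicate 3 exceeded every DMSO library, against 28.4% of the 17956 genes. DMSO replicate 1 was the lowest DMSO library in 237 genes (69.5%), against 28.6% of the 17956. Whether either library carries a wrong label was not tested.

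The set took a small part of all RNA counted. Its summed level was 2373, 4589, 4610, 3454 and 5442 CPM in DMSO replicates 1 to 5. The sum was 1697, 1917, 7573 and 1737 CPM in 15 pM replicates 1 to 4, and at 150 pM it lay between 1702 and 2535 CPM in replicates 2 to 6. The lowest DMSO library, replicate 1, overlapped the range at 150 pM, and 15 pM replicate 3 was the highest of all. In bulk brain, fewer cells that express a gene and less RNA of it per cell cannot be told apart.

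Most members did not part the groups completely. All 9 rotenone libraries lay below all 5 DMSO libraries in 4 of the 341 genes, where 0.145% of the 17956 genes did so. The 4 libraries at 15 pM lay below all DMSO libraries in 11 members, against 8.96% of the 17956 genes, and the 5 at 150 pM did so in 57, against 1.97%. The choice of members used these contrasts, so nothing is read from the shares.

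In edgeR's quasi-likelihood test across all genes, fitted on the 14 libraries with Benjamini-Hochberg adjustment over the 19306 genes kept by its filter, all 407 members were tested. At 15 pM, 13 of the 341 lower members were called at an adjusted p under 0.05, where 10.35% of all tested genes were called lower. The same test called 4 of the 66 higher members, where 7.86% of tested genes were called higher. At 150 pM edgeR called 0 members and 0 genes in all (0% lower and 0% higher), with 2454 genes at an unadjusted p under 0.05 and 230 called by DESeq2. At that dose DESeq2 gave an adjusted p to 21507 genes and called 125 lower (0.581%) and 105 higher (0.488%); 33 of the lower set were called, of 330 with an adjusted p, and 0 of the 66 in the higher set. For the mean of both doses against DMSO edgeR called 3 genes, 0.0155% of those tested, all lower and 0 of them members. There, 2537 genes had an unadjusted p under 0.05, and DESeq2 called 349 of the 13563 genes to which it gave an adjusted p, 193 lower (1.42%) and 156 higher (1.15%). It called 8 of the 127 lower members and 1 of the 22 higher members that had an adjusted p, and gave none to the other members. Both dose comparisons share the DMSO libraries, and in edgeR also each gene's estimate of spread, which came from all 3 groups. The choice of members used the same contrasts.

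The calls in the lower set depended most, among single libraries left out, on 15 pM replicate 3. Without that library alone, edgeR called 228 of the 341 lower members at 15 pM, where 16.76% of tested genes were called lower, and 97 at 150 pM, where 0.984% were. The lower set had been chosen for low medians at both doses against the same DMSO libraries. At 15 pM, dropping the library that lay high over these genes therefore adds calls partly by construction. At 150 pM the fitted median log2 fold change was -1.11 with and without that library. Each gene's estimate of spread came from all 3 groups, so a 15 pM library enters the test at 150 pM through the spread. No enrichment is read from 228 or 97. Without DMSO replicate 1 alone edgeR called 9 at 15 pM, where 6.91% of tested genes were called lower, and 15 at 150 pM, where 0.613% were. With DMSO replicate 1 and 15 pM replicate 3 both left out, edgeR called 270 of the 341 lower members at 15 pM, where 15.70% of tested genes were called lower, and 248 at 150 pM, where 4.24% were. The higher set then had 3 of 66 members called at 15 pM, where 10.09% of tested genes were called higher, and 2 at 150 pM, where 5.37% were. Leaving out both together was decided after their values in this set had been seen, so that a larger number is in part built into their removal. With all 14 libraries, the fitted median log2 fold change of the lower set was -1.11 at 150 pM and -0.32 at 15 pM. At 15 pM it was -1.28 without 15 pM replicate 3 alone, -0.46 without DMSO replicate 1 alone and -1.41 without both. Leaving out 15 pM replicate 1, 2 or 4 moved it to between -0.09 and -0.08, and leaving out DMSO replicate 5 to -0.18.

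The position of a library that had no part in the choice was examined next. Members were chosen again without each library in turn, and that library was then compared with the median of the DMSO libraries used. For the lower set, DMSO replicates 2, 3, 4 and 5 lay at -0.22, 0.15, 0.35 and -0.28 in the direction of the set, while the rotenone libraries used lay at 0.78 to 0.85. DMSO replicate 1 lay at 0.83, close to the 0.90 of the rotenone libraries used. Thus, by median, 4 of the 5 DMSO libraries stayed nearer to DMSO when they had not been used. Replicate 4 did so least: 169 of 355 genes (47.6%) lay on the rotenone side of the midpoint. That share was 3.93%, 27.9% and 19.8% in replicates 2, 3 and 5.

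Rotenone libraries left out of the choice of the lower set lay at 0.92 for 15 pM replicate 1, 0.83 for replicate 2 and 0.95 for replicate 4. At 150 pM they lay between 0.70 and 1.0 for replicates 2 to 6. The exception was 15 pM replicate 3, at -0.76. Any library left out was set against DMSO libraries that had taken part in the choice, which by construction moves it toward the rotenone side.

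**Figure D2:**
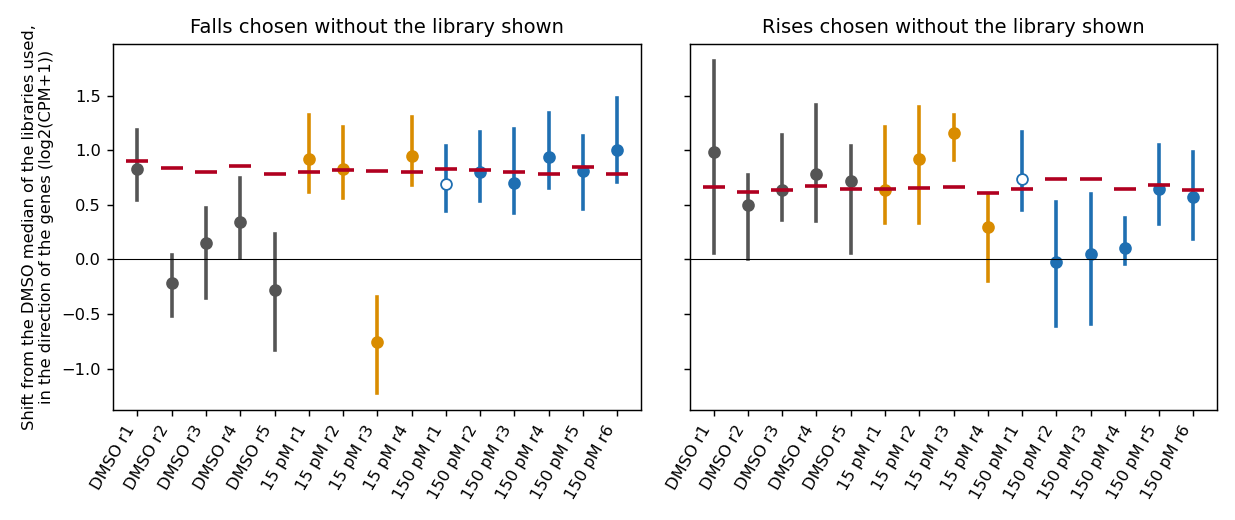
Shift of each library over members chosen without it, in log2(CPM+1) and turned so that the direction of the set is positive; points are medians, bars quartiles, red dashes the rotenone libraries used. For the lower set (left) DMSO replicates 2 to 5 sit between -0.28 and 0.35, and for the higher set (right) all 5 DMSO libraries sit between 0.50 and 0.98.

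150 pM replicate 1, which the choice had left out, gave a similar reading. Its median difference from DMSO over the lower set was -0.69, and 277 of the 341 genes lay on the rotenone side. A difference of at least 0.4 below the DMSO median was found in 275 of the 341 genes (80.6%), against 9.09% of the 17956 genes. DMSO replicate 1, a solvent library used in the choice, had a similar share. There it was 270 of the 341 genes (79.2%), against 3.67% of the 17956, so by the labels such a share was not confined to treated libraries. In DMSO replicates 2 to 5, also used in the choice, it was 0.587%, 13.8%, 30.2% and 8.80%. Over the 17956 genes the shares in these libraries were 0.535%, 4.41%, 1.87% and 2.62%. The dose of 150 pM replicate 1 is uncertain, so it stands as a rotenone library by its label and not as support for either dose.

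The higher set did not behave in the same way. Its median difference from DMSO was 0.76 at 15 pM, with quartiles of 0.54 and 1.03, and 0.59 at 150 pM, with quartiles of 0.47 and 0.68, both on the log2(CPM+1) scale. The low dose lay farther from DMSO in 52 members and the high dose in 14. A difference of at least 1 at both doses was found in 7 members and one of at least 2 in 2. The median log2 fold change fitted by edgeR was 0.60 at 15 pM and 0.34 at 150 pM.

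By library, the median difference over the 66 genes of the higher set was 0.64, 0.88, 1.13 and 0.45 in 15 pM replicates 1 to 4. The 150 pM libraries had medians of 0.42, 0.49 and 0.43 in replicates 2, 3 and 4, and 0.74 and 0.71 in replicates 5 and 6. The 5 DMSO libraries each had a median of 0, but spread widely around it, with upper quartiles of 1.17 in replicate 1 and 0.91 in replicate 4. In 54 of the 66 genes 2 of the 5 DMSO libraries lay on the rotenone side of the midpoint, the most that the DMSO median allows, and in 4 genes none did. The corresponding numbers in the lower set were 158 and 25 of 341.

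When left out of the choice of the higher set, 4 of the 5 DMSO libraries lay at least as high as the rotenone libraries used, and replicate 2 lay lower. DMSO replicates 1 to 5 lay at 0.98, 0.50, 0.64, 0.79 and 0.72, and the rotenone libraries used lay at 0.66, 0.62, 0.63, 0.67 and 0.64. The left-out 150 pM replicates 2, 3 and 4 lay at -0.02, 0.05 and 0.11, below every left-out DMSO library. Replicates 5 and 6 lay at 0.64 and 0.57, and the 15 pM libraries between 0.29 and 1.16. Left-out DMSO and rotenone libraries thus overlapped over the higher set.

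The make-up of the higher set also changed more from library to library. Leaving out 1 DMSO library kept between 35 and 44 of its 66 members, and leaving out 150 pM replicate 5 kept 29. In the lower set, leaving out any 1 library kept between 259 and 327 of 341. In 150 pM replicate 1 the higher set lay at a median of 0.74, with 51 of 66 genes (77.3%) at least 0.4 above the DMSO median, against 3.01% of the 17956 genes. DMSO libraries left out of the choice lay between 0.50 and 0.98, so this position does not tell rotenone from DMSO.

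No member of the higher set had all 9 rotenone libraries above all DMSO libraries, as 0.1% of the 17956 genes did. All 15 pM libraries lay above all DMSO libraries in 2 members, against 7.1% of genes, and all 150 pM libraries in 0, against 1.52%.

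The lower set varied together within the groups. The choice used medians of the same 14 libraries, so this joint variation is not independent of it and is given as a description. Each gene's deviations from its group means were correlated with the mean of the other members over the 14 libraries. The median correlation was 0.88 in the lower set, with quartiles of 0.74 and 0.94, and 0.44 in the higher set, with quartiles of 0.22 and 0.51. A correlation of 0.7 or more was found in 262 of the 341 lower members and in 0 of the 66 higher members. Genes of a library share its RNA, preparation and depth, so these values describe the libraries and carry no p.

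The same 2 libraries carried most of that joint variation. The median correlation between pairs of lower members was 0.71 over 14 libraries, 0.41 without 15 pM replicate 3, 0.68 without DMSO replicate 1 and 0.16 without both. The first component of the deviations held 66.3% of the variance over all 14 libraries and 34.7% without both. In the higher set the pairwise median was 0.03, and the first and second components held 40.6% and 21.6%.

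**Figure D3:**
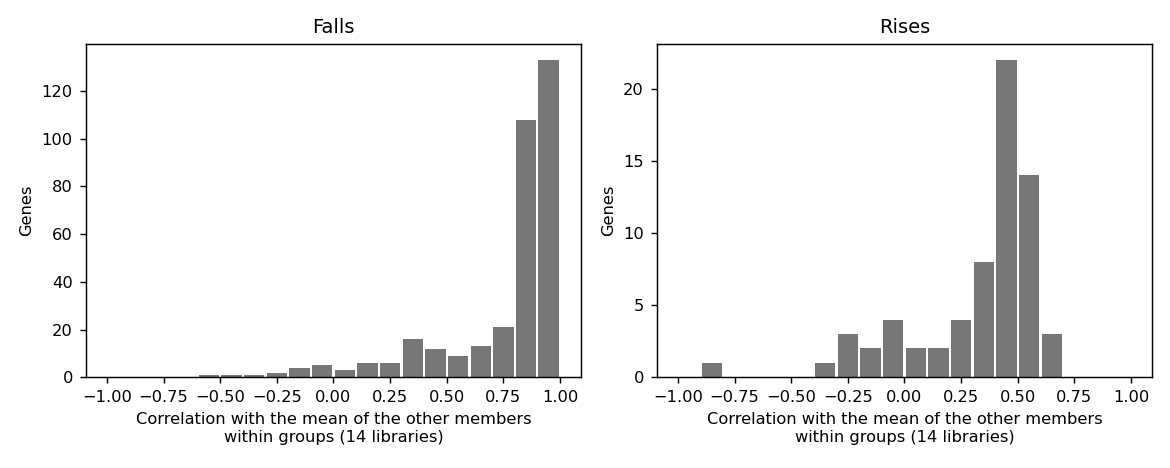
Number of genes by correlation of their within-group deviations with the mean of the other members, for the lower set (left, titled Falls) and the higher set (right, titled Rises), over 14 libraries. In the left panel 262 of 341 genes lie at 0.7 or above, and in the right panel none of 66 does.

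The lower set was divided at a correlation of 0.7, a boundary set after its values were seen. The 262 genes at or above it had a median difference of -0.90 at 15 pM and -0.94 at 150 pM and the other 79 genes of -0.68 and -0.67. Because 15 pM replicate 3 and DMSO replicate 1 together carried much of the correlation, their positions in either subset follow from the division and are given as a description. Over the 262 genes the median difference was -0.82 in DMSO replicate 1 and 0.92 in 15 pM replicate 3. Over those 79 genes the median difference was -0.34 in DMSO replicate 1, between -0.09 and 0.07 in the other DMSO libraries, -0.17 in 15 pM replicate 3, between -0.85 and -0.61 in the other 15 pM libraries, and between -0.84 and -0.43 in 150 pM replicates 2 to 6.

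The 15 genes with a difference of at least 2 at both doses showed the contrast between libraries as well. Their median level was 1.37 CPM in DMSO replicate 1, and 9.1, 19.2, 6.41 and 19.0 CPM in DMSO replicates 2 to 5. It was 0.389, 0.775, 31.0 and 0.888 CPM in 15 pM replicates 1 to 4, and between 0.517 and 2.27 CPM in 150 pM replicates 2 to 6. In DMSO replicates 2, 3 and 5 and in 15 pM replicate 3, 0 of the 15 genes were under 1 CPM, whereas 7 were in DMSO replicate 1 and 12 in 150 pM replicate 6. In 10 of the 15, 15 pM replicate 3 exceeded every DMSO library, and in 12 DMSO replicate 1 was the lowest of the DMSO libraries. Their implied lengths ran from 333 to 13485 bases.

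**Figure D4:**
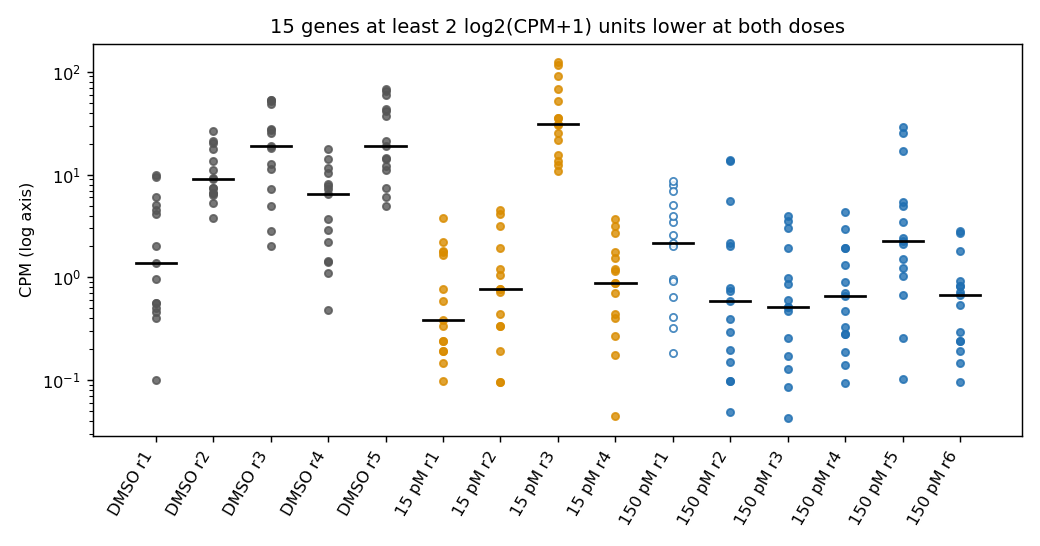
Level in CPM on a log axis of the 15 genes lower by at least 2 log2(CPM+1) units at both doses, 1 point per gene and library, with black lines at the median; the open circles are 150 pM replicate 1. 15 pM replicate 3 has the highest median, 31.0 CPM, and DMSO replicate 1, at 1.37 CPM, lies among the rotenone libraries.

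The member with the largest shift, a gene with an implied length of 2947 bases, was close to an on and off pattern. It was at 0.559 CPM in DMSO replicate 1 and at 17.7, 25.2, 17.6 and 41.4 CPM in DMSO replicates 2 to 5. In 15 pM replicates 1 to 4 the gene was at 0.389, 0.775, 125 and 1.55 CPM. Its range at 150 pM was between 0.473 and 1.03 CPM in replicates 2 to 6, and at 2.61 CPM in replicate 1. The gene was high in 5 libraries, 4 from DMSO and 1 from 15 pM, and at 2.61 CPM or lower in the other 10.

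The gene that followed the other lower members most closely, with a correlation of 0.99 and an implied length of 5964 bases, was likewise high in DMSO replicates 2 to 5 and 15 pM replicate 3. It was at 10.06, 32.9, 29.5, 23.6 and 38.3 CPM in DMSO replicates 1 to 5 and at 8.94, 9.68, 59.3 and 7.63 CPM in 15 pM replicates 1 to 4. At 150 pM it was between 8.45 and 12.11 CPM in replicates 2 to 6. DMSO replicate 1 lay within the range at 150 pM.

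Of the lower set, Nfu_g_1_012595 and Nfu_g_1_024976 had the widest gap between the nearest DMSO and rotenone libraries. Nfu_g_1_012595 (implied length 2395 bases) was at 10.3, 15.2, 14.6, 15.9 and 10.4 CPM in DMSO replicates 1 to 5, a mean of 13.3 ± 2.71 (SD, n = 5). The 15 pM libraries were at 4.57, 4.50, 2.84 and 4.88 CPM, a mean of 4.198 ± 0.921 (SD, n = 4). The 150 pM libraries were at 8.43, 0.259, 0.425, 3.66 and 6.99 CPM in replicates 2 to 6, a mean of 3.95 ± 3.73 (SD, n = 5), and at 2.42 CPM in replicate 1. All rotenone libraries lay below all DMSO libraries, and the spread at 150 pM, with 2 libraries under 1 CPM, was wider than at 15 pM. Its correlation with the other lower members within groups was -0.13, so it did not follow the set. The pick by the gap left out genes that were high in 15 pM replicate 3, which carried much of that correlation.

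Nfu_g_1_024976 (883 bases) was at 1.22, 6.57, 3.06, 5.06 and 1.52 CPM in DMSO replicates 1 to 5, a mean of 3.49 ± 2.30 (SD, n = 5). Levels at 15 pM were 0.777, 0.823, 0.862 and 0.444 CPM, a mean of 0.727 ± 0.192 (SD, n = 4), and at 150 pM at 0.397, 0.862, 0.189, 0.876 and 0.291 CPM in replicates 2 to 6, a mean of 0.523 ± 0.324 (SD, n = 5). 150 pM replicate 1, at 1.46 CPM, lay within the DMSO range. The gap of Nfu_g_1_024976 rested on few reads, with 24 in DMSO replicate 1 against 20 in 150 pM replicate 3 and 17 in 150 pM replicate 5. Both genes were low in 15 pM replicate 3, where most of the set was high, as the pick by the gap required.

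The most abundant lower member, with an implied length of 3336 bases, was at 181, 199, 213, 175 and 147 CPM in DMSO replicates 1 to 5. Its levels at 15 pM were 103, 101, 123 and 105 CPM, below every DMSO library. Its levels at 150 pM were 177, 74.2, 78.7, 123 and 144 CPM in replicates 2 to 6, so that replicate 2 lay within the DMSO range. It followed the rest of the set weakly, with a correlation of 0.14.

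**Figure D5:**
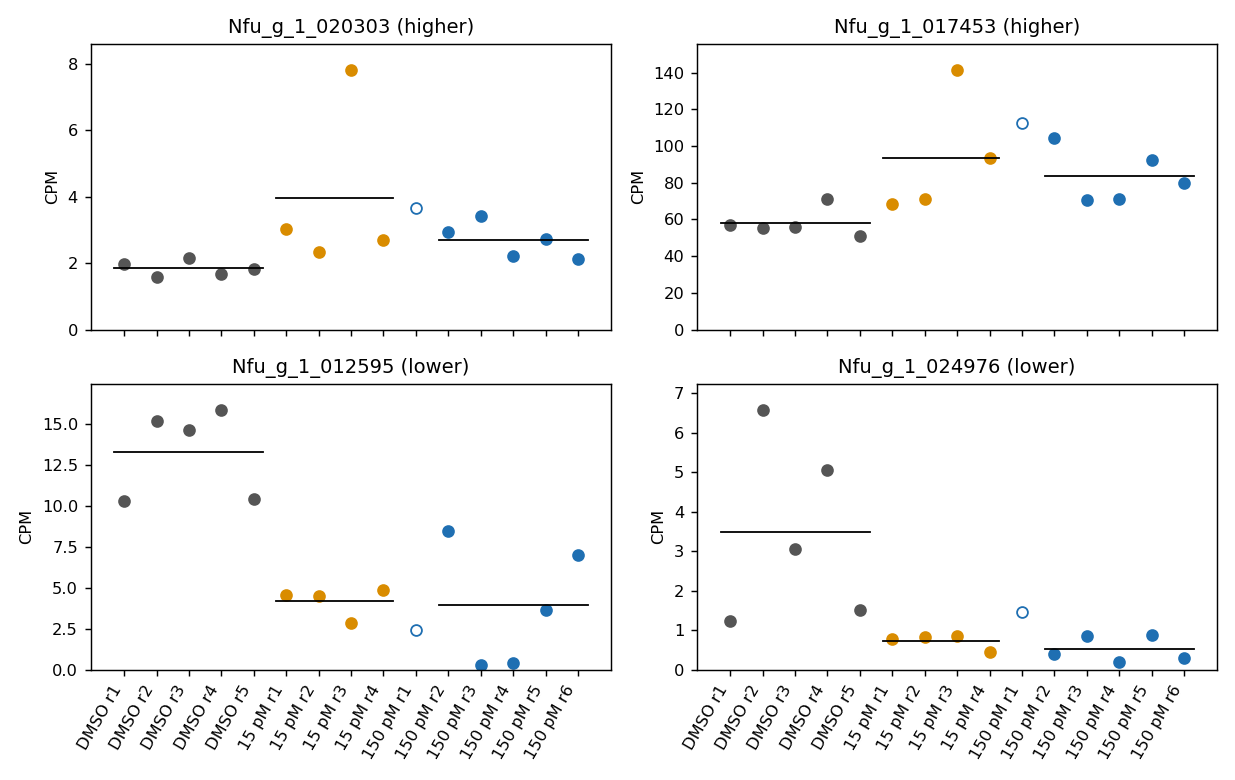
CPM of the 4 printed identifiers in each library, with lines at the mean of each group of the choice and an open circle for 150 pM replicate 1. For Nfu_g_1_012595 and Nfu_g_1_024976 the filled rotenone points lie below all DMSO points, and for Nfu_g_1_020303 and Nfu_g_1_017453 the lowest rotenone point lies just below the highest DMSO point.

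Of the higher set, Nfu_g_1_020303 and Nfu_g_1_017453 came nearest to a gap between the groups. Nfu_g_1_020303 (2067 bases) was at 1.98, 1.57, 2.15, 1.69 and 1.83 CPM in DMSO, a mean of 1.84 ± 0.231 (SD, n = 5). At 15 pM it was at 3.01, 2.32, 7.81 and 2.71 CPM, a mean of 3.96 ± 2.58 (SD, n = 4), and at 150 pM at 2.93, 3.41, 2.22, 2.73 and 2.14 CPM in replicates 2 to 6, a mean of 2.68 ± 0.523 (SD, n = 5). The lowest library at 150 pM lay just under the highest DMSO library, and 15 pM replicate 3 set the high mean at 15 pM.

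Nfu_g_1_017453 (4502 bases) was at 56.7, 55.4, 55.9, 71.1 and 50.9 CPM in DMSO, a mean of 58.0 ± 7.65 (SD, n = 5). At 15 pM it was at 68.4, 71.0, 141 and 93.5 CPM, a mean of 93.6 ± 33.9 (SD, n = 4), and at 150 pM at 104, 70.7, 71.0, 92.4 and 80.1 CPM in replicates 2 to 6, a mean of 83.7 ± 14.6 (SD, n = 5). The overlap was due to DMSO replicate 4. 150 pM replicate 1, at 3.66 CPM for Nfu_g_1_020303 and 112 CPM for Nfu_g_1_017453, exceeded the highest DMSO library for each gene.

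The higher member with the largest shift (3311 bases) shows how the DMSO median could lie low. It was at 0.406, 36.6, 13.1, 0.241 and 0.0891 CPM in DMSO replicates 1 to 5 and at 0.0972, 13.5, 48.1 and 21.3 CPM in 15 pM replicates 1 to 4. At 150 pM it was at 29.6, 16.4, 8.13, 14.4 and 0.0972 CPM in replicates 2 to 6. It was thus high in some libraries of every group and near 0 in others. The most abundant higher member (5561 bases) was at 74.7, 119, 127, 39.6 and 82.8 CPM in DMSO and between 88.3 and 143 CPM at 15 pM. At 150 pM it was between 123 and 138 CPM in replicates 2 to 6. Its DMSO libraries overlapped both doses.

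Members of both sets were low and variable genes. The median mean count was 91.9 in the lower set and 87.7 in the higher set, against 435.5 over the 17956 genes, and 63.0% and 68.2% of members fell in the lowest quartile class, with mean counts under 138. The median DMSO level was 5.33 CPM in the lower set and 2.34 CPM in the higher set, against 20.3 CPM. The median SD within groups, on the log2(CPM+1) scale, was 0.64 in the lower set and 0.68 in the higher set, against 0.15 over all 17956 genes. Counting error alone would give a median SD of 0.12 for either set, and the SD exceeded 2 times its counting value in 333 of the 341 lower members and in 65 of the 66 higher members, as it did in 57.2% of the 17956 genes. The spread between libraries was thus wider than counting error in most members. A limit on the difference between medians of few libraries favours variable genes, so the wide spread follows in part from the choice.

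The median length implied by the counts and RPKM values was 2496 bases in the lower set and 2332.5 bases in the higher set, against 2776.5 bases over the 17956 genes. Genes longer than 4805 bases, the longest quartile class, made up 17.0% of the lower set and 7.58% of the higher set. The boundary of 0.4 did not fall in a gap. The 3 lower members nearest to it had a smaller difference of 0.401 in size, and the nearest genes outside had 0.398, 0.393 and 0.392. In the higher set the nearest inside lay between 0.4004 and 0.402 and the nearest outside between 0.393 and 0.397. Between 0.4 and 0.5 there were 72 lower and 27 higher members, and between 0.3 and 0.4, just outside, 89 and 66 genes.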

How the data were processed

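Per the labels' protocols, library preparation used TruSeq RNA v2, a kit without strand information. Per the submitters' processing notes, the tools included featureCounts 1.4.6-p4, STAR 2.4.1d and CASAVA 1.8.2. Not given in the sources used here: genome build, annotation, counting settings. As raw values, the authors deposited read counts per gene for 26739 identifiers and 15 libraries. The deposited RPKM table served only to compute gene lengths: in 6891 genes, RPKM had been divided by the library totals taken in turn down the rows (median largest deviation 4.04e-05 log2 units, against 0.237 with each library's own total). Without strand, and with read sharing unknown, overlapping genes and close copies are uncertain.

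The members and lists were chosen with earlier results of these data known. Groups followed the treatment labels, with replicates numbered in sample order. Counts were divided by column sums, and log2 was taken after adding 1 CPM. EdgeR 4.0.16 in R 4.3.3 fitted the genes kept by filterByExpr (19306) with TMM scaling and a robust quasi-likelihood F test across the 3 groups of the 14 libraries. It was tested on simulated data. There every gene had the same spread, narrower than that of most members, and no library stood apart, so that test does not cover the members. DESeq2 1.42.0 was an alternative. No adjusted p is given for single members. The identifiers printed are the 2 per direction with the widest gap between DMSO and rotenone libraries among members with a mean of at least 1 CPM; other single members were picked by rank after their values were seen. Marker and pathway lists were not run, since 0 identifiers could be paired with symbols. Calculations used Python 3.11.15.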

Additional observations from a re-analysis of the deposited data

Results flagged for a closer look

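Dixon's gap test was set up for 24 groups of values. Among them, the DMSO medians over the higher set were each 0 and could not be tested. In 4 groups a single library stood away from its neighbours. For independent groups of normally distributed values, chance gives this in about 1 of 20. The groups here share libraries and genes, and the identifiers were picked by their gaps, so that rate does not apply directly. At 15 pM, replicate 3 had a median difference of 0.76 over the lower set and a summed level of 7573 CPM, and it had 7.81 CPM of Nfu_g_1_020303. In DMSO, replicate 4 had 71.1 CPM of Nfu_g_1_017453. The first 3 of these values come from a single library.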

How the results depend on the processing

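The lower set had 341 members and the higher set 66. A minimum mean count of 100 gave 157 and 28, and group means in place of medians gave 153 and 27, of which 114 and 16 were members before. Under the other settings, which were TMM scaling, a pseudocount of 0.5, no minimum, removal of the gene length trend and 150 pM replicate 1 counted as 150 pM, the numbers stayed within 1.5 times. Counting that library as 15 pM was not tried. Leaving out 1 library gave 280 to 406 lower and 36 to 83 higher members, the lowest being 36 without 150 pM replicate 6 and 40 without replicate 5. With DMSO replicate 1 and 15 pM replicate 3 both left out, which was decided after seeing the data, there were 414 lower members, 304 of them members before, and 76 higher, 38 of them members before.

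EdgeR called 3516 genes at 15 pM, and 2137 (without 15 pM replicate 4) to 5770 (without 15 pM replicate 3) with 1 library left out, among them 2229 without DMSO replicate 1. At 150 pM it called 0, and 0 to 561 with 1 library left out: 561 without DMSO replicate 1, 239 when 15 pM replicate 3 was dropped, and 3 when 150 pM replicate 2 was. For the mean of both doses it called 3, and 0 to 685 with 1 left out, the highest without 15 pM replicate 3. That number was 10 and 6 without 15 pM replicates 2 and 1, 1 without DMSO replicate 5, and 0 without any of DMSO replicates 1 to 4, 15 pM replicate 4 or 150 pM replicates 3 to 6. With 150 pM replicate 1 kept it was 0. DESeq2 called 230 at 150 pM and 349 for the mean of both doses. Without both libraries that stood apart, edgeR called 1861 and 608. The causes were not tested. DMSO and 15 pM share title numbers 2 to 5, but same-numbered libraries did not deviate together (correlations of -0.09, 0.10, -0.18 and -0.15). On these 8 libraries edgeR called 186 genes with no block and 0 with the title number as a replicate block, with 3902 at an unadjusted p under 0.05. The edgeR or DESeq2 log2 fold changes of the 4 printed identifiers moved by less than their SD within groups, taken on the log2(CPM+1) scale, in all 19 settings run for each. They were picked by the gap between these same libraries, so this follows in part from the pick. For Nfu_g_1_020303 the value was 0.826 with all 14 libraries and 0.543 without 15 pM replicate 3. Its SD of 0.364 included that library. For Nfu_g_1_017453 the values were 0.617 and 0.481, and its SD of 0.309 included that library too.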

Other observations

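Genes outside both sets also followed the lower set within groups. Among the 17956 genes, 557 non-members had deviations that correlated at 0.8 or more with the mean deviation of the lower set over the 14 libraries, as did 240 of its 341 members, and 201 non-members correlated at -0.8 or less. The 557 genes differed little between groups, with median differences from DMSO of -0.04 at 15 pM and -0.11 at 150 pM on the log2(CPM+1) scale. Members had been set aside first, so the small differences of these 557 genes follow in part from that exclusion. In 15 pM replicate 3 their median difference was 0.65 and in DMSO replicate 1 it was -0.17, whereas it lay between -0.16 and -0.02 in the other rotenone libraries. For the 201 genes it was -0.50 in 15 pM replicate 3 and between -0.08 and 0.07 in every other library. The correlations were computed on the same libraries that chose the set, and what the genes share is not given by the files.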
